A study of Mus musculus with 173 samples.

Results

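The results describe the corpus callosum of mice that carry a Huntington's disease mutation, set against the same tract of wild-type mice. The members are the libraries whose sample title names the corpus callosum: 16 of the 173 libraries of the series, 8 from Q175 mice and 8 from wild-type (WT) mice, with 4 females and 4 males of each genotype. Q175 mice were heterozygous knock-in animals, with 1 copy of the mouse huntingtin gene Htt holding a run of 175 CAG codons and 1 normal copy. WT mice had no such allele. Both groups were C57BL/6 animals aged 6 months, and the knock-in allele stands at the gene's own locus, so every cell type carries it. Per the labels, Q175 mice shared cages with their own kind. WT mice shared cages with the Q20 line and bear animal codes of that colony, although the series text calls them littermates. Genotype, cage mates and colony cannot be told apart in any comparison below. The comparison addresses how the white matter tract responds to the expanded allele, in a survey of 11 tissues.

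The corpus callosum is the tract of axons that joins the hemispheres of the brain. Its cells are mainly myelin-forming oligodendrocytes, with their precursors, astrocytes, microglia and vessel cells, while neuronal cell bodies lie in the cortex, hippocampus and striatum that border it. Meninges lie above it and the choroid plexus of the ventricles below it. Huntingtin is a large scaffold protein, and the expanded CAG run codes for an expanded polyglutamine run near its start. Type I interferon signalling, which several of the gene groups below belong to, begins when sensors detect nucleic acids in the cell. Interferon then binds its receptor on the same or a neighbouring cell, transcription factors enter the nucleus, bind a repeated GAAA element in promoters and raise antiviral effector genes.

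That element was looked for in the RefSeq promoters of the interferon effector genes, because the effectors were the list with most members at a higher level in Q175 mice. The letters GAAANNGAAA, on either strand, stood within 250 bases before to 50 bases after the start in 17 of the 34 effectors with a promoter sequence (50%). The same letters stood in 1079 of all 27025 genes with a promoter (3.99%) and in 453 of 12232 of the genes tested here (3.7%). Of the antigen presentation genes of MHC class I, 3 of 12 held it (25%), against 2 of 16 meningeal fibroblast genes (12.5%) and 2 of 17 homeostatic microglia genes (11.8%). A match is a description of letters and not evidence of binding. Below are windows of 60 bases from the promoters of the genes described most closely, read 5′ to 3′ along the gene's own strand in build GRCm38.p6, with the matched letters in capitals. Where the match is on the other strand it reads TTTCNNTTTC.
Bst2, chr8:71537562-71537621, minus strand: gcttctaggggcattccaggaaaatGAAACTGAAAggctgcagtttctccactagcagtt
Isg15, chr4:156200850-156200909, minus strand: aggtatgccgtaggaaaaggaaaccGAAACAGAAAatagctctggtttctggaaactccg
Ifit1, chr19:34640779-34640838, plus strand: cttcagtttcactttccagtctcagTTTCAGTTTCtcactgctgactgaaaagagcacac
Gbp2, chr3:142620579-142620638, plus strand: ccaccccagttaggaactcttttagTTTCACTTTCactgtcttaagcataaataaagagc
B2m, chr2:122147523-122147582, plus strand: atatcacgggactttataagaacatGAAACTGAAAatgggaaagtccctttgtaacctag
Ddx58, chr4:40239789-40239848, minus strand: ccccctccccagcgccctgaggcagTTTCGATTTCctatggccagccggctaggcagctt

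The tissue label was checked against myelin genes, per gene length in FPKM, the deposited unit that scales reads to transcript length and library total. Mbp, a main protein of compact myelin, had a median of 12537 FPKM in Q175 and 10843 FPKM in WT corpus callosum. In the hippocampus of the same mice the medians were 1048 FPKM in Q175 and 963 FPKM in WT mice, and in brainstem 4245 and 4314 FPKM in Q175 and WT mice. Mog, another myelin protein, had 337 and 284 FPKM in Q175 and WT corpus callosum, against 32.6 and 26.3 FPKM in Q175 and WT hippocampus. Neuronal RNA was present as well: Slc17a7, the vesicular glutamate transporter of cortical neurons, had 85.2 FPKM in Q175 and 143 FPKM in WT corpus callosum, against 369 and 398 FPKM in Q175 and WT hippocampus.

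The libraries held 32 to 39.7 M (mega) estimated counts each. All other levels below are CPM (estimated counts scaled to the effective library total), and a change is the log2 of Q175 over WT, with its standard error (SE). Changes and tests come from edgeR with sex as a term unless another tool is named. A gene given with a DESeq2 adjusted p was not called by edgeR, and its change and SE are from edgeR. Of 16540 genes tested, 9 were called at a Benjamini-Hochberg adjusted p under 0.05 (0.0544%), 8 higher (0.0484%) and 1 lower (0.00605%). At an unadjusted p under 0.05 the counts were 1582 higher (9.56%) and 1568 lower (9.48%), and DESeq2 called 156 genes higher (0.83%) and 46 lower (0.245%) of 18803. Each list count below is to be read beside these shares, unless another fit is named. The median change over all genes was 0.0014. Some libraries stood apart. Summed transcripts of meningeal fibroblasts were 1638 and 1811 CPM in Q175 female 3 and Q175 male 1. The 6 remaining Q175 libraries held 204 to 569 CPM, and the WT libraries 215 to 395 CPM. For these and all cell type lists below, bulk tissue cannot tell apart the amount of bordering tissue dissected along, the number of cells and the RNA per cell. In Q175 female 2, Q175 male 1 and WT female 1, levels fell with transcript length. Q175 male 4 went against the other Q175 libraries in several genes, as given below. With so few calls, single libraries matter: 0 genes were called without WT female 1 or without WT female 2, at unadjusted p under 0.05 in 3947 and 2645 genes, and 12 were called without Q175 male 4. Without Q175 females 1 or 4, Q175 males 1, 2 or 3, WT females 3 or 4, or WT males 2 or 3, the calls numbered 3 to 5.

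Htt, the gene that carries the mutation, had lower levels in Q175 mice in most libraries. Its lowest, median and highest levels were 66.5, 104 and 122 CPM in Q175 libraries, against 82.4, 153 and 173 CPM in WT libraries. Only WT female 1, at 82.4 CPM, lay inside the Q175 range, and the next lowest WT library had 139 CPM. The lowest Htt levels of all were in Q175 male 1, Q175 female 2 and WT female 1, the libraries whose levels fell with transcript length. The change with that trend removed is given in the last section. The change was -0.57 (SE 0.146), with an edgeR adjusted p of 0.209, and it passed under DESeq2 with an adjusted p of 0.0324. Counts of the normal and the expanded copy are summed here, so they do not show the level of either.

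Of the 9 called genes, the named ones are Smoc1, Osbpl5, Abhd1 and Dbhos. The other 5 are clone or predicted genes, 4 higher and 1 lower. In Smoc1, Osbpl5 and the 1 gene that fell, all 8 Q175 libraries lay past all 8 WT libraries, a pattern that 15 genes showed upward (0.0907%) and 4 downward (0.0242%). In the other 6 called genes, 7 Q175 libraries lay above every WT library and Q175 male 4 did not.

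Smoc1 encodes a secreted matrix protein of the SPARC family that binds calcium and modulates growth factor signalling. It had 21.4, 29.96 and 58.5 CPM in Q175 libraries (lowest, median and highest), against 13.2, 15.4 and 18.6 CPM in WT libraries. The lowest Q175 library, male 4, was above the highest WT library, and Q175 female 3 was the highest, well above the next at 37 CPM. The change was 1.05 (SE 0.159, edgeR adjusted p = 0.0191), and Smoc1 was called in 5 of the 16 fits that left out 1 library, with changes of 0.89 to 1.11. Among the other 7 tested members of the SPARC family none was called by edgeR or DESeq2, and at an unadjusted p under 0.05 2 were higher and 1 was lower. Sparc itself, the founding member, had 225, 247 and 354 CPM in Q175 libraries and 188, 216 and 249 CPM in WT libraries, a change of 0.26 (SE 0.0926) with an edgeR adjusted p of 0.219.

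Osbpl5 encodes an oxysterol-binding protein-related protein that sits at contacts of the endoplasmic reticulum with the plasma membrane and moves lipids between them. Its levels were 31.8, 38.2 and 43.4 CPM in Q175 libraries (lowest, median and highest), against 25.4, 28.1 and 29.99 CPM in WT libraries. The groups did not overlap, though the gap between them was narrow. The change was 0.45 (SE 0.0672, edgeR adjusted p = 0.0183), and it was called in 7 of the 16 fits that left out 1 library. Of the 11 other tested members of the family, Osbpl3 and Osbpl6 had lower levels at an unadjusted p under 0.05, with changes of -0.56 (SE 0.187) and -0.57 (SE 0.209) and edgeR adjusted p of 0.218 and 0.219. The summed level of the family was 631 to 793 CPM in Q175 libraries and 744 to 805 CPM in WT libraries, with 4 Q175 libraries below all WT libraries.

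Abhd1 encodes an enzyme of the alpha/beta hydrolase family, and it lies on chromosome 5, as Htt does. In the 4 Q175 females it had 6.93, 6.63, 5.88 and 6.49 CPM, and in Q175 males 1 to 4 it had 7.5, 5.28, 6.74 and 1.98 CPM. WT females had 2.36, 2.42, 2.19 and 1.88 CPM, and WT males 2.10, 1.98, 2.08 and 2.54 CPM. Q175 male 4 stood inside the WT range, and a wide gap separated the other 7 Q175 libraries from all WT libraries. The change was 1.43 (SE 0.197, edgeR adjusted p = 0.0128), called in 14 of the 16 fits that left out 1 library. Dbhos, an RNA antisense to the dopamine beta-hydroxylase gene, had 2.46 to 3.61 CPM in 7 Q175 libraries and 0.852 CPM in Q175 male 4, against 0.560 to 1.38 CPM in WT libraries. Its change was 1.58 (SE 0.249, edgeR adjusted p = 0.0234); the labels do not state strand, so its reads and those of the gene opposite cannot be told apart.

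The place of Q175 male 4 was then counted over all genes. In 76 genes exactly 7 Q175 libraries lay above every WT library, and Q175 male 4 was the exception in 53 of them, Q175 male 3 in 9 and any other library in 6 or fewer. In 31 genes 7 Q175 libraries lay below every WT library, and Q175 male 4 was the exception in 19. Of those 53 genes 11 lie on chromosome 5, which carries Htt, and so do 3 of the 9 called genes, while 6.16% of the tested genes lie there (1006 of 16331). Htt in Q175 male 4 was 122 CPM, the highest of the Q175 libraries and below all WT libraries but WT female 1. Its summed interferon effectors were the lowest of the Q175 libraries (369 CPM) and its summed excitatory neuron transcripts the highest (3529 CPM, where the 7 others ran from 612 to 2376 CPM). The part of any of these in the pattern was not tested. The label of this library was kept, and neither its genotype nor the alleles around Htt could be checked here, which touches the pattern and the calls without it alike. Without the library labelled Q175 male 4 the calls numbered 12, of which 8 were among the 9. The others included Tmem119 (0.58, edgeR adjusted p = 0.0094) and the matrix genes Vit (0.69, edgeR adjusted p = 0.0252) and Fbln7 (0.67, edgeR adjusted p = 0.027). Both matrix genes were named after their values were seen. This fit was singled out after the values of Q175 male 4 were seen, and that library lay in the WT range for Tmem119. Its p-values are therefore not independent support.

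**Figure D1:**
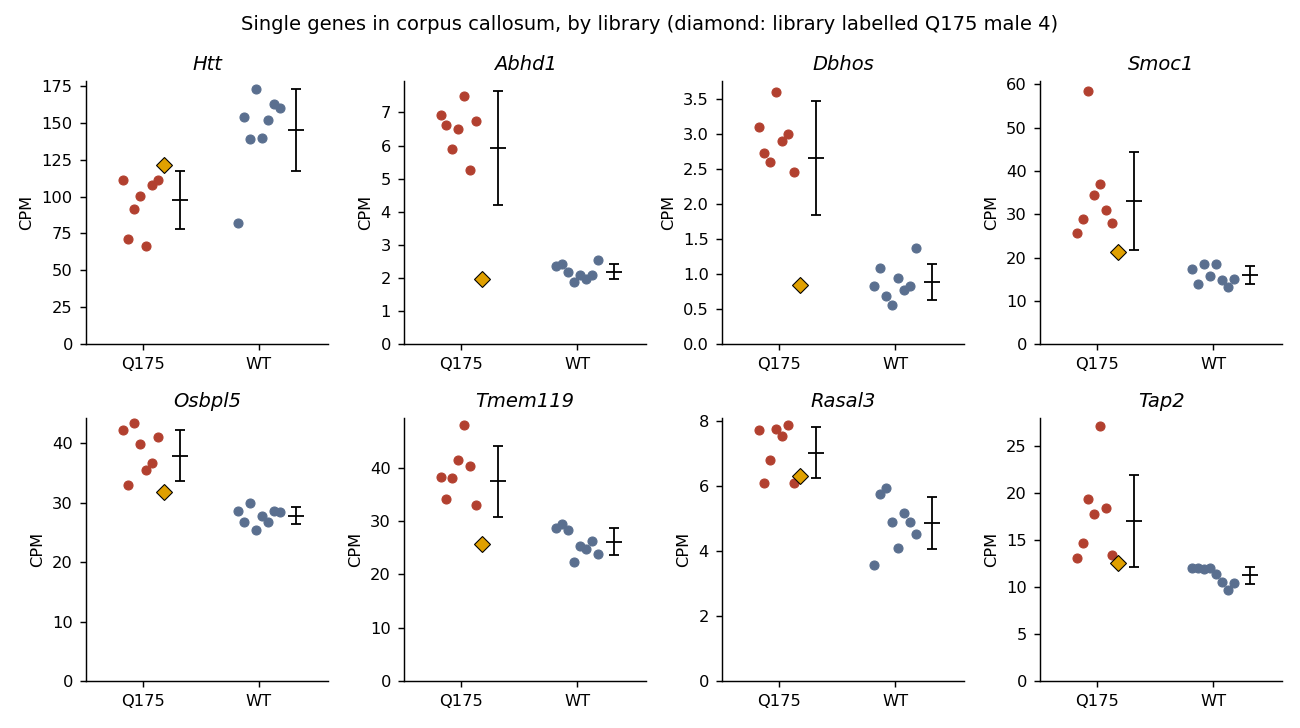
Levels in CPM of 8 single genes in the 8 Q175 (left) and 8 WT (right) corpus callosum libraries, with mean and SD beside the points and Q175 male 4 as a diamond. Smoc1, Osbpl5, Rasal3 and Tap2 do not overlap between the groups, and the diamond falls in the WT range for Abhd1, Dbhos and Tmem119. For Htt it does so through WT female 1 alone, as all other WT libraries lie above it.

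Beyond the calls, 13 genes with a mean of at least 1 CPM passed under DESeq2 with groups that did not overlap, 11 higher and 2 lower. Those with the largest rises were Tmem37 (a membrane protein related to calcium channel subunits), Col9a2 (a collagen chain), Ppl (periplakin, a linker of the cytoskeleton), Tap2 (a subunit of the transporter that feeds peptides to MHC class I), Palld (an actin-binding protein) and Tnfrsf1a (a receptor of tumour necrosis factor). Tmem37 had 1.27, 1.5 and 3.43 CPM in Q175 libraries and 0.769, 0.95 and 1.17 CPM in WT libraries (0.96, SE 0.223, DESeq2 adjusted p = 0.019). Col9a2 had 8.03, 9.61 and 27.5 CPM in Q175 libraries and 6.03, 6.93 and 7.51 CPM in WT libraries (0.95, SE 0.251, DESeq2 adjusted p = 0.031). In both, Q175 female 3 and Q175 male 1, the pair highest in meningeal transcripts, were the highest libraries, and the other Q175 libraries lay just above the WT range. Rasal3, a regulator of Ras in blood cells, had a more even rise, with 6.09, 7.18 and 7.90 CPM in Q175 libraries and 3.59, 4.91 and 5.94 CPM in WT libraries (0.53, SE 0.109, DESeq2 adjusted p = 0.00344). Fes, a kinase of myeloid cells, Nuak2, a kinase related to AMPK, Ppl, Palld and Tnfrsf1a had changes of 0.47, 0.58, 0.79, 0.60 and 0.59. Of the 2 that fell, the named one is Zrsr2, a splicing factor of minor introns, with 30.3 to 35.2 CPM in Q175 libraries and 36.1 to 39.3 CPM in WT libraries (-0.17, SE 0.0436, DESeq2 adjusted p = 0.019).

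Interferon genes are given by role, starting from the sensors. Of 10 tested sensors and their adaptors, 0 were called by edgeR, 3 passed under DESeq2 and 5 had higher levels at an unadjusted p under 0.05, against 9.56% of all genes; the median change was 0.25. Ddx58 (RIG-I, which binds short viral RNA) had 9.30, 16.9 and 22.4 CPM in Q175 libraries and 7.11, 10.1 and 12.5 CPM in WT libraries (0.70, SE 0.183, DESeq2 adjusted p = 0.036). Irf3, the factor that sensors activate, had 30.04, 34.9 and 41 CPM in Q175 libraries and 24.7, 29.4 and 32.5 CPM in WT libraries (0.29, SE 0.0722, DESeq2 adjusted p = 0.0334), and 7 Q175 libraries lay above all WT libraries. Zbp1, a sensor of nucleic acids in the Z form, passed under DESeq2 too (1.72, SE 0.455, adjusted p = 0.0287), at 0.278 to 2.80 CPM in Q175 libraries and 0.176 to 0.615 CPM in WT libraries. Ifih1 (MDA5, which binds long RNA) had a change of 0.49 (SE 0.144) with a DESeq2 adjusted p of 0.0742.

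The ligands themselves were near absent. None of the 10 interferon genes of the list was high enough to be tested, and their summed level was 0 to 0.0618 CPM in Q175 libraries and 0 to 0.0303 CPM in WT libraries. Among the 14 receptors and signalling members 6 had higher levels and 1 a lower level at an unadjusted p under 0.05, against 9.56% and 9.48% of all genes. Of the higher ones 3 passed under DESeq2, and the median change of the list was 0.20. Usp18 and Irf7 were among the 3. Irf7, which amplifies interferon production, had 2.87, 7.86 and 20.1 CPM in Q175 libraries and 2.19, 3 and 5.25 CPM in WT libraries (1.53, SE 0.373, DESeq2 adjusted p = 0.011). The lowest Q175 libraries lay within the WT range and 5 Q175 libraries were above all WT libraries.

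Usp18, an enzyme that takes Isg15 off proteins and dampens signalling at the receptor, shows the spread library by library. Its levels were 5.50, 3.02, 4.77 and 10.7 CPM in Q175 females 1 to 4 and 14, 11.8, 2.22 and 1.29 CPM in Q175 males 1 to 4. WT females had 1.35, 1.90, 2.49 and 3.09 CPM and WT males 1.73, 1.56, 1.26 and 1.78 CPM. In all, 5 Q175 libraries were above all WT libraries, and Q175 female 2 and Q175 males 3 and 4 were not. The change was 1.82 (SE 0.436, DESeq2 adjusted p = 0.00627; edgeR adjusted p = 0.209).

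The effectors are the antiviral products at the end of the pathway. Of 44 members, all tested, 44 had a positive change (50.4% of all genes). At an unadjusted p under 0.05, 39 had higher levels (9.56% of all genes) and 0 lower levels (9.48%), and 21 passed under DESeq2 (0.83% of all genes). None was called by edgeR, while 37 were called higher by limma voom in a fit over 48 libraries of 3 tissues described at the end, where 6.22% of all genes were. That fit takes 1 spread per gene over the 3 tissues, so its calls are not like for like with those of edgeR. The median change was 0.81, against 0.0014 over all genes. Summed over the list, the levels were 369, 637 and 1016 CPM in Q175 libraries (lowest, median and highest), against 338, 392 and 444 CPM in WT libraries. Of the Q175 libraries, 6 were above all WT libraries, and Q175 males 3 and 4, at 379 and 369 CPM, lay within the WT range. Neither of these males was above the highest WT library in 42 of the 44 genes, and Q175 male 1 had the highest level of all 16 libraries in 28.

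Bst2 (tetherin, which holds budding virus at the cell surface) had 6.80, 7.21, 11.9 and 12.1 CPM in Q175 females 1 to 4 and 19.9, 9.31, 3.37 and 3.46 CPM in Q175 males 1 to 4. WT libraries ran from 2.76 to 5.37 CPM. Its change was 1.36 (SE 0.313, DESeq2 adjusted p = 0.00652; edgeR adjusted p = 0.209). Isg15, a small protein that is attached to others in the antiviral state, had 1.67, 4.57 and 7.67 CPM in Q175 libraries and 1.36, 1.78 and 2.66 CPM in WT libraries (1.17, SE 0.286, DESeq2 adjusted p = 0.0167). Ifit1, which binds viral RNA caps, had 3.51, 15.1 and 21.3 CPM in Q175 libraries and 3.51, 4.89 and 8.63 CPM in WT libraries (1.33, SE 0.348, DESeq2 adjusted p = 0.0207). Both groups reached down to the same level, and the Q175 libraries spread upward from it. Ifi35, Oas1b, Trim25, Parp9 and Gbp2 passed under DESeq2 as well, with changes of 0.90, 1.28, 0.57, 0.65 and 0.81, and in Ifi35, Oas1b, Trim25 and Gbp2 the same number of Q175 libraries, 6, lay above all WT libraries.

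**Figure D2:**
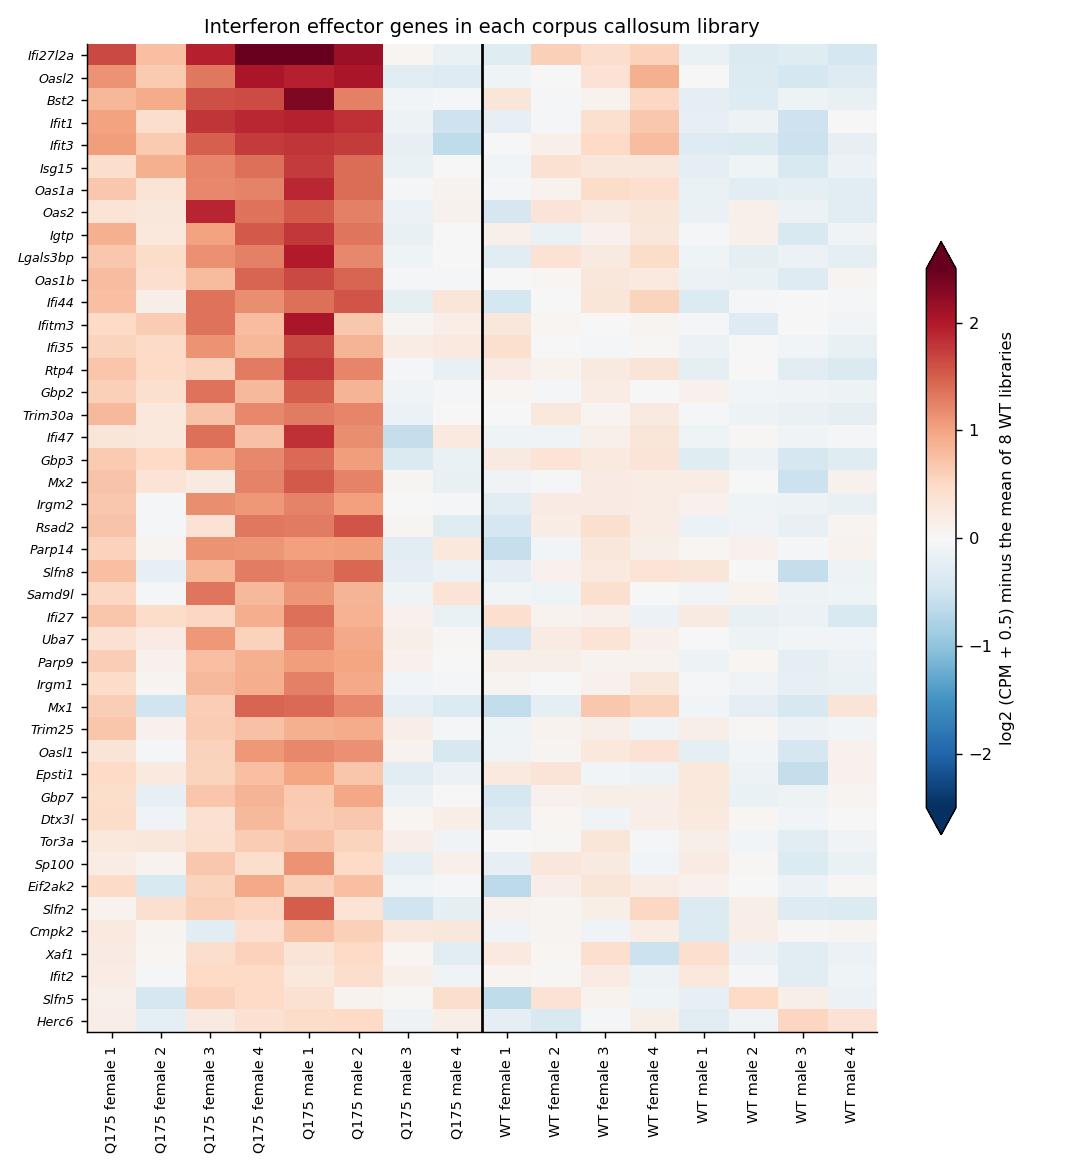
Heat map of 44 interferon effector genes (rows) in 16 corpus callosum libraries (columns, Q175 left of the line, WT right of it), coloured by log2 (CPM + 0.5) minus the mean of the WT libraries, with the end colours also used past the ends of the scale. Q175 male 1 is the highest library in 28 genes, and Q175 males 3 and 4 lie near the WT libraries.

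MHC class I genes present peptides to T cells, and interferon raises them. Of the 14 members of that list 13 had higher levels and 0 lower levels at an unadjusted p under 0.05, where 9.56% of all genes were higher. Under DESeq2 7 passed, where 0.83% of all genes were called higher, and the median change was 0.78. H2-D1, a heavy chain, had 54.1, 98.8 and 270 CPM in Q175 libraries and 50.1, 59.8 and 70.7 CPM in WT libraries (1.05, SE 0.267, DESeq2 adjusted p = 0.019). B2m, the light chain that all class I molecules share, had 97.9, 162 and 385 CPM in Q175 libraries and 89.5, 108 and 131 CPM in WT libraries (0.83, SE 0.228, DESeq2 adjusted p = 0.0372). In both, 6 Q175 libraries were above all WT libraries, and Q175 male 1 was far above the next. Nlrc5, the transactivator of class I genes, had a change of 1.30 (SE 0.353, DESeq2 adjusted p = 0.0301), and Tap2, whose groups do not overlap, one of 0.60 (SE 0.141, DESeq2 adjusted p = 0.019). H2-D1 and H2-K1 are closely related in sequence, so reads may have been split between them and their levels are uncertain.

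Meningeal and effector sums went together in some libraries and not in others, and their correlation was not tested. Q175 male 1 was the highest library in both, with 1811 CPM of meningeal transcripts and 1016 CPM of effectors. Q175 female 3, with 1638 CPM of meningeal transcripts, had an effector sum above all WT libraries. Q175 male 3 was low in both among the Q175 libraries. By contrast, Q175 female 1 had the lowest meningeal sum of all 16 libraries (204 CPM) with 572 CPM of effectors. Q175 male 4 had 569 CPM of meningeal transcripts with the lowest Q175 effector sum. Omitting Q175 female 3 and Q175 male 1, the pair highest in meningeal transcripts, 34 of 44 effectors had higher levels at an unadjusted p under 0.05 and the median change was 0.56; for MHC class I the values were 12 of 14 and 0.50, where 4.64% of all genes were higher. With summed meningeal transcripts as a term, 32 effectors did so with a median of 0.54, against 3.7% of all genes. With summed excitatory neuron transcripts as a term, 24 did with a median of 0.65, against 3.24% of all genes. Without Q175 male 4 there were 41, with a median of 0.89, against 12.3% of all genes. The shares of all genes thus moved between these fits as well. In females alone the median was 0.70 and in males alone 0.98, where the effector sums of Q175 males 3 and 4 lay within the WT range.

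**Figure D3:**
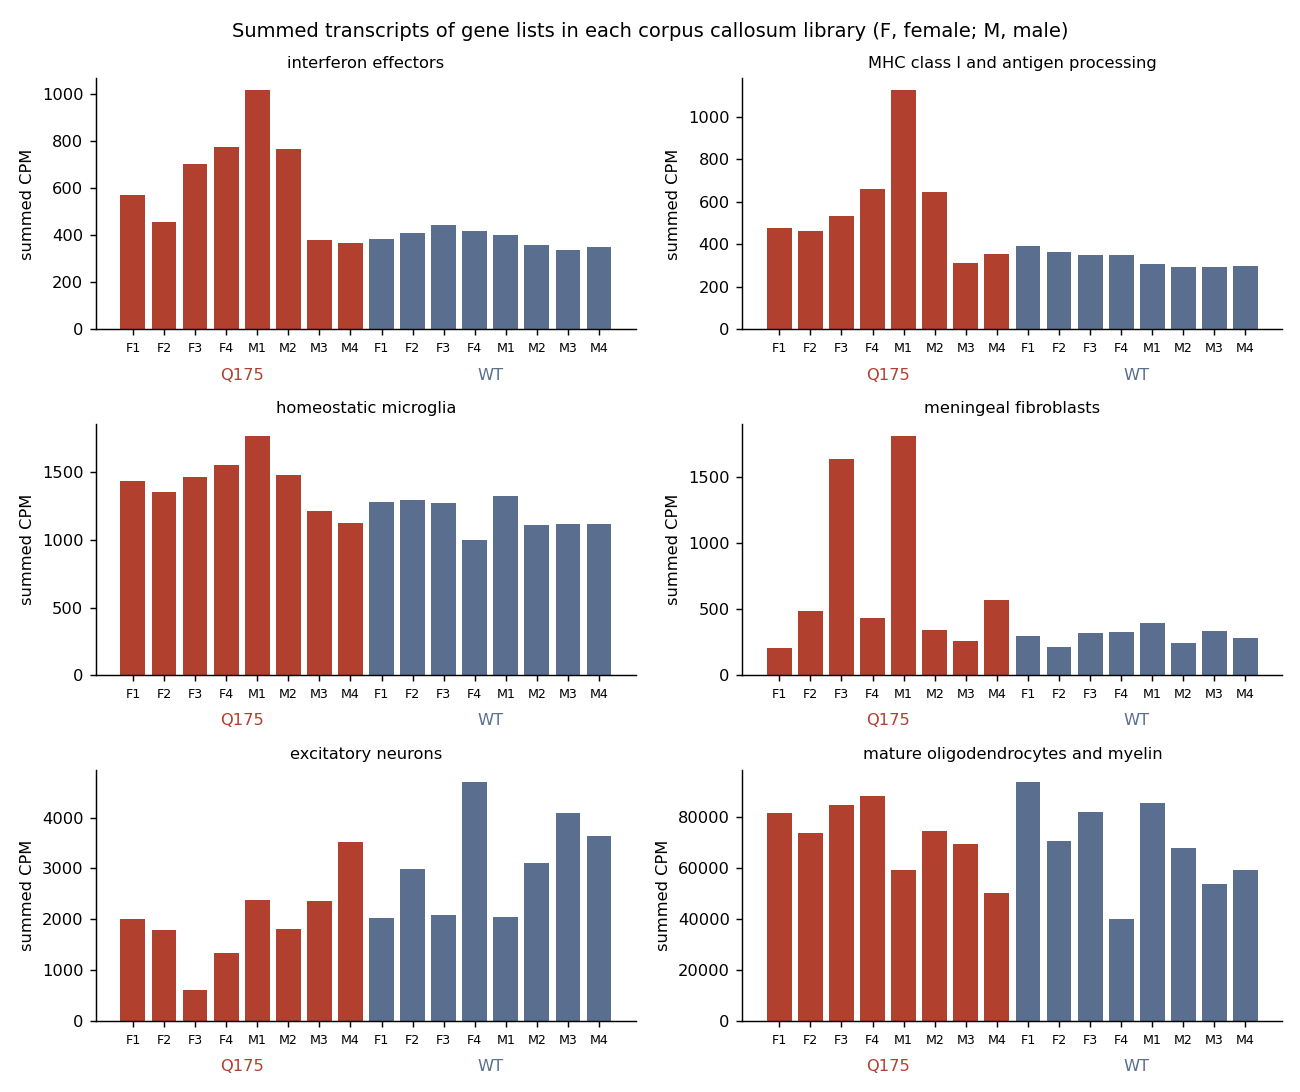
Summed levels in CPM of 6 gene lists in each corpus callosum library, with 8 Q175 bars left of 8 WT bars and F or M with the replicate number below. The effector and MHC class I sums are high in 6 Q175 libraries, meningeal sums in Q175 F3 (1638 CPM) and M1 (1811 CPM), and myelin sums overlap.

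Microglia are the resident macrophages of brain tissue. Of 25 genes of homeostatic microglia 11 had higher levels and 0 lower levels at an unadjusted p under 0.05, where 9.56% of all genes were higher. The median change was 0.28. Tmem119, a surface protein of resident microglia, had 25.8, 38.1 and 48 CPM in Q175 libraries and 22.3, 25.8 and 29.4 CPM in WT libraries (0.52, SE 0.102, edgeR adjusted p = 0.171, DESeq2 adjusted p = 0.00344). Q175 male 4 was the 1 Q175 library within the WT range. Selplg, a ligand of selectins, had 36.5, 50.8 and 57.5 CPM in Q175 libraries and 32.5, 40.6 and 43.1 CPM in WT libraries (0.32, SE 0.086, DESeq2 adjusted p = 0.0539), with 7 Q175 libraries above all WT libraries. P2ry12, the nucleotide receptor of resident microglia, had 44.8, 52 and 54.4 CPM in Q175 libraries and 38.3, 50.6 and 57.9 CPM in WT libraries, which overlap throughout (0.06, SE 0.0768, edgeR adjusted p = 0.71). The summed level of the list was 1122 to 1767 CPM in Q175 libraries and 999 to 1325 CPM in WT libraries.

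Of 18 tested genes of activated microglia, 8 had higher levels at an unadjusted p under 0.05, against 9.56% of all genes, and the median change was 0.24. Itgax, an integrin of activated microglia and dendritic cells, passed under DESeq2 (0.93, SE 0.238, adjusted p = 0.0312), with 0.888, 1.90 and 3.05 CPM in Q175 libraries and 0.756, 0.940 and 1.82 CPM in WT libraries. Spp1 (osteopontin) had 6.48, 9.05 and 73.6 CPM in Q175 libraries and 5.62, 7.29 and 11.3 CPM in WT libraries, so its change of 1.33 (SE 0.482, edgeR adjusted p = 0.219) rests on few libraries, the highest being Q175 female 3. Without Q175 female 3 the count for the list was 4, without Q175 male 1 it was 3, and without both it was 2, where 6.52%, 7.06% and 4.64% of all genes were higher in the same order.

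All 7 genes of border macrophages, which live in the meninges and around vessels, had higher levels at an unadjusted p under 0.05, against 9.56% of all genes. Their median change was 0.95 and none passed under DESeq2. Mrc1, their mannose receptor, had 3.22, 6.22 and 23.3 CPM in Q175 libraries and 3.66, 4.89 and 7.63 CPM in WT libraries (0.81, SE 0.346, edgeR adjusted p = 0.24). Omitting Q175 female 3 and male 1, 0 of the 7 did so and the median was 0.32, while leaving out female 3 alone gave 2 and male 1 alone 1 of 7. In those 3 fits 4.64%, 6.52% and 7.06% of all genes were higher. Of 10 complement genes 7 had higher levels, against 9.56% of all genes, with a median change of 0.84. Omitting the pair gave 3 of 10, against 4.64% of all genes, and a median of 0.23. Serping1, the C1 inhibitor, passed under DESeq2 (1.38, SE 0.416, adjusted p = 0.0444), with 8.28, 15.4 and 78.1 CPM in Q175 libraries and 7.10, 9.48 and 12.5 CPM in WT libraries. C4b, a component that glia make, had 145, 289 and 395 CPM in Q175 libraries and 140, 169 and 223 CPM in WT libraries (0.67, SE 0.195, DESeq2 adjusted p = 0.059).

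Oligodendrocyte genes are given by stage. Of 36 tested myelin and mature oligodendrocyte genes 3 had higher levels and 0 lower levels at an unadjusted p under 0.05, where 9.56% of all genes were higher, and the median change was 0.11. Summed over the list, the levels were 50283 to 88262 CPM in Q175 libraries and 39883 to 93787 CPM in WT libraries, which overlap fully. The lineage factors Olig1 and Olig2 had changes of 0.34 (SE 0.14) and 0.37 (SE 0.156) with edgeR adjusted p of 0.23 and 0.235. Olig2 had 62.4, 104 and 119 CPM in Q175 libraries and 47.3, 69.9 and 105 CPM in WT libraries. Of 14 precursor genes 3 had higher levels, against the same 9.56% of all genes, and the median change was 0.09. Cspg4, the NG2 proteoglycan of these cells, had 34.9 to 46.8 CPM in Q175 libraries and 23.3 to 43.5 CPM in WT libraries. Of 10 genes of differentiating oligodendrocytes all had a positive change, 3 had higher levels and the median change was 0.17. Bmp4, a growth factor that newly formed oligodendrocytes express, passed under DESeq2. Its levels were 4.76, 7.91 and 19.4 CPM in Q175 libraries and 4.32, 4.77 and 6.21 CPM in WT libraries (0.91, SE 0.249, DESeq2 adjusted p = 0.039), with 6 Q175 libraries above all WT libraries. Tcf7l2, a factor of the same stage, had a change of 0.35 (SE 0.114, DESeq2 adjusted p = 0.1).

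Genes of astrocyte identity and of reactive astrocytes were read apart. Of the 22 identity genes 5 had higher levels at an unadjusted p under 0.05, against 9.56% of all genes, and the median change was 0.03. S100b, a calcium-binding protein, had 171, 232 and 285 CPM in Q175 libraries and 113, 175 and 247 CPM in WT libraries (0.39, SE 0.13, edgeR adjusted p = 0.219). Aqp4, the water channel of astrocyte end-feet, had 158 to 252 CPM in Q175 libraries and 140 to 206 CPM in WT libraries (0.25, SE 0.0799, adjusted p = 0.211). Of 16 tested genes of reactive astrocytes 11 had higher levels and 3 passed under DESeq2, with a median change of 0.54. Those 3 were Vim, Gbp2 and Cxcl10, of which Gbp2 is also in the effector list and Cxcl10 is a chemokine that interferon raises. Cxcl10 had 0.429, 3.01 and 6.78 CPM in Q175 libraries and 0.453, 0.563 and 2.03 CPM in WT libraries (1.75, SE 0.527, DESeq2 adjusted p = 0.0427). Vim (vimentin, an intermediate filament) had 117, 140 and 286 CPM in Q175 libraries and 89.6, 104 and 129 CPM in WT libraries (0.64, SE 0.164, DESeq2 adjusted p = 0.0301). Gfap, the filament that most defines reactive astrocytes, had 558, 718 and 867 CPM in Q175 libraries and 448, 618 and 785 CPM in WT libraries, with wide overlap (0.20, SE 0.115, edgeR adjusted p = 0.349). Omitting Q175 female 3 and male 1, 5 of the 16 had higher levels, with a median of 0.23, where 4.64% of all genes were higher.

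Neuronal transcripts ran lower in Q175 libraries. None of 22 excitatory neuron genes had a positive change, 9 had lower levels at an unadjusted p under 0.05, against 9.48% of all genes, and the median change was -0.63. Their summed level was 612, 1908 and 3529 CPM in Q175 libraries and 2027, 3053 and 4700 CPM in WT libraries, and 5 Q175 libraries lay below all WT libraries. Slc17a7 had 69.9, 249 and 452 CPM in Q175 libraries and 210, 430 and 592 CPM in WT libraries (-0.78, SE 0.307, edgeR adjusted p = 0.225). Of 13 interneuron genes 8 had lower levels, with a median of -0.44; Pvalb, the calcium buffer of fast-spiking cells, had 5.32 to 19.9 CPM in Q175 libraries and 11.4 to 26.6 CPM in WT libraries (-0.74, SE 0.24, edgeR adjusted p = 0.211). Of 13 genes that all neurons share 7 had lower levels, with a median of -0.54, while of 12 genes of neuroblasts and neural stem cells 1 had a higher level, with a median of 0.26. Leaving out Q175 female 3 and male 1 left 3 lower excitatory genes and a median of -0.50, where 3.94% of all genes were lower, and leaving out Q175 male 4 gave 14 and -0.75, where 13.7% were. The excitatory median was -0.99 in females and -0.32 in males. The part of bordering tissue in these values was not tested.

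Genes of striatal projection neurons, the cells most affected in Huntington's disease, had no common direction here: of 27 tested, 1 had a lower level at an unadjusted p under 0.05 and the median change was 0.13. The sign of that median depended on the libraries and the fit, with -0.27 in females, 0.54 in males, -0.50 without Q175 female 2, -0.35 without Q175 male 2 and -0.33 in the limma fit over 3 tissues. Their summed level was 2767 and 2240 CPM in Q175 female 2 and Q175 male 2, and 2308 and 2323 CPM in WT female 2 and WT female 4. The other libraries held 588 to 896 CPM in the Q175 group and 751 to 1136 CPM in the WT group, so a pair of libraries of each genotype stood apart in striatal RNA.

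Immediate early genes are switched on within minutes of neuronal firing. Of 26 tested, 12 had lower levels and 0 higher levels at an unadjusted p under 0.05, where 9.48% of all genes were lower. Under DESeq2 2 passed, and the median change was -0.63. Npas4, a factor specific to neuronal activity, had 2.57, 6.03 and 10.3 CPM in Q175 libraries and 5.65, 13.6 and 30.02 CPM in WT libraries (-1.35, SE 0.321, DESeq2 adjusted p = 0.00828, edgeR adjusted p = 0.209). Arc, which regulates receptors at synapses, had 51.9, 69.1 and 105 CPM in Q175 libraries and 76, 147 and 229 CPM in WT libraries (-0.97, SE 0.229, DESeq2 adjusted p = 0.0119, edgeR adjusted p = 0.209). In each of these genes 4 Q175 libraries lay below all WT libraries. Fos had a change of -0.95 (SE 0.312) with an edgeR adjusted p of 0.217. With summed excitatory neuron transcripts as a term the median was -0.09 and 2 genes had lower levels, where 1.81% of all genes were lower. Omitting Q175 female 3 and male 1, 11 genes did, with a median of -0.52, where 3.94% were. The part of neuronal RNA in this difference was not tested.

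All 22 meningeal fibroblast genes had higher levels at an unadjusted p under 0.05, against 9.56% of all genes, and the median change was 1.32. In each of the 22, Q175 female 3 or Q175 male 1 was the highest library. Col3a1, a fibrillar collagen, had 1.61, 6.47 and 63.3 CPM in Q175 libraries and 2.08, 2.83 and 4.15 CPM in WT libraries (2.18, SE 0.645, DESeq2 adjusted p = 0.0478). Omitting the pair, 6 of 22 had higher levels and the median was 0.32, where 4.64% of all genes were higher. Leaving out female 3 alone gave 13 and 0.89, and male 1 alone 12 and 0.86, where 6.52% and 7.06% were. Of 20 endothelial and mural genes 6 had higher levels, against 9.56% of all genes, with a median of 0.29. Slc2a1, the glucose transporter of brain vessels, had 133, 194 and 206 CPM in Q175 libraries and 125, 152 and 192 CPM in WT libraries (0.32, SE 0.0989, DESeq2 adjusted p = 0.0905), with Q175 male 4 the low library. Acta2, the actin of smooth muscle around arteries, had 17.4, 38.6 and 288 CPM in Q175 libraries and 15.5, 20.7 and 38.4 CPM in WT libraries (1.93, SE 0.599, DESeq2 adjusted p = 0.0654). Of 14 choroid plexus and ependymal genes 2 had higher levels and none of 5 red blood cell genes did, against the same 9.56% of all genes. Of the 13 lymphocyte genes of the list 2 were high enough to be tested. The part of meningeal RNA in the other differences was not tested beyond the values without the pair and with meningeal transcripts as a term.

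Lipid and hormone genes close the account. Of 24 genes of cholesterol synthesis, which myelin needs, 8 had lower levels and 0 higher levels at an unadjusted p under 0.05. Over all genes 9.48% were lower at that level. Under DESeq2 2 of the 24 passed, and their median change over the list was -0.19. Hsd17b7, an enzyme of a late step, had 17.1, 21 and 23.6 CPM in Q175 libraries and 21.5, 27.3 and 32.3 CPM in WT libraries (-0.33, SE 0.0779, DESeq2 adjusted p = 0.0198). Omitting Q175 female 3 and male 1 left the count at 8 and the median at -0.21, where 3.94% of all genes were lower. Of 15 glucocorticoid-responsive genes 5 had higher levels, against 9.56% of all genes, with a median of 0.45. Plin4, a coat protein of lipid droplets, passed under DESeq2 (1.43, SE 0.367, adjusted p = 0.0167), with 23.7, 93.8 and 209 CPM in Q175 libraries and 24.4, 35.7 and 65.7 CPM in WT libraries, while Fkbp5, a co-chaperone of the receptor, had a change of 0.58 (SE 0.254, edgeR adjusted p = 0.244). Of 16 clock genes 4 had lower levels, against 9.48% of all genes, with a median of -0.10.

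**Figure D4:**
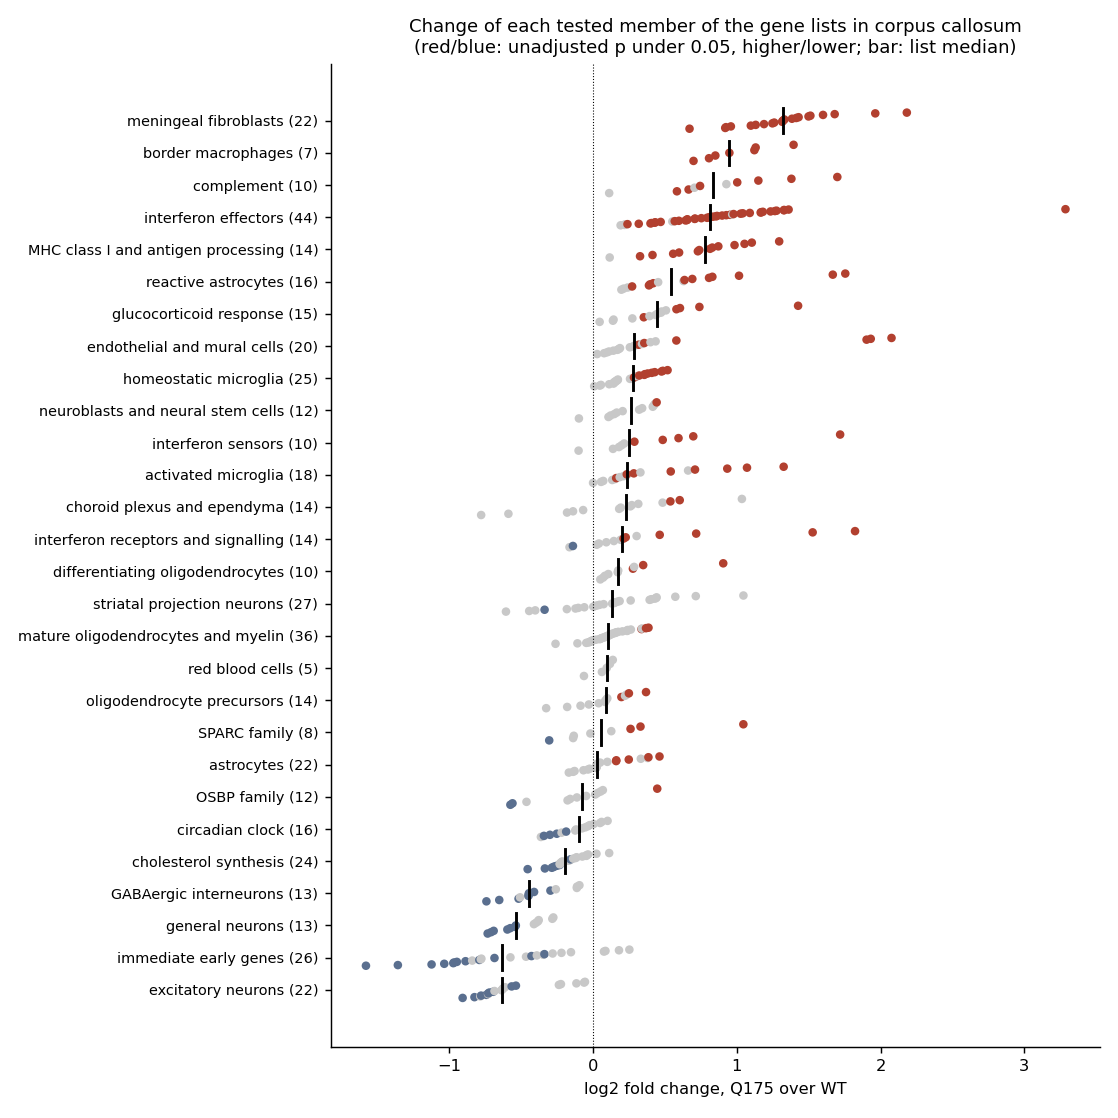
Log2 fold change of Q175 over WT for each tested member of the gene lists, one row per list with the number tested in brackets, red and blue for an unadjusted p under 0.05 (higher and lower) and a bar for the list median. Medians run from -0.63 for excitatory neurons and immediate early genes to 1.32 for meningeal fibroblasts.

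The sexes were compared with a sex by genotype term. No gene was called by edgeR (0%), with 380 genes at an unadjusted p under 0.05, and DESeq2 called 0 with 551 at that level. In females alone 4 genes were called of 16573 (0.0241%) and in males alone 0 of 16622 (0%), with 727 at an unadjusted p under 0.05. The single-sex fits hold 4 libraries a group. Smoc1 had changes of 1.17 in females and 0.93 in males, Osbpl5 0.52 and 0.38, and Abhd1 1.55 and 1.31, where the males include Q175 male 4. Bst2 had 1.15 in females and 1.59 in males, where Q175 males 3 and 4 lay within the WT range.

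The same 16 mice also gave hippocampus and brainstem libraries, so each mouse could be followed across 3 tissues, with CPM scaled within each tissue. Smoc1 was above all WT mice in 8 of 8 Q175 mice in each tissue. In corpus callosum it ran from 21.4 to 58.1 CPM in the Q175 mice and from 13.2 to 18.6 CPM in the WT mice. Hippocampus had 14.3 to 17.6 CPM (Q175 mice) and 10.5 to 13 CPM (WT mice), and brainstem 29.4 to 34.4 CPM (Q175 mice) and 15.7 to 22.4 CPM (WT mice). Osbpl5 likewise did not overlap in any of the 3, with 45.8 to 51.5 CPM (Q175 mice) and 35 to 43.2 CPM (WT mice) in brainstem, and 17.439 to 24 CPM (Q175 mice) and 14.7 to 17.436 CPM (WT mice) in hippocampus, where the groups all but touch. Abhd1 was above all WT mice in 7 of 8 Q175 mice in each tissue, and the exception was the same mouse. That mouse, the source of Q175 male 4, had 1.99, 2.30 and 1.38 CPM in corpus callosum, hippocampus and brainstem, where the lowest of the other 7 Q175 mice had 5.27, 4.60 and 5.23 CPM. Its Htt level was 176 CPM in hippocampus, where Q175 mice had 80.3 to 206 CPM and WT mice 208 to 255 CPM. In brainstem its Htt level was 130 CPM, where Q175 mice had 113 to 154 CPM and WT mice 95 to 200 CPM. Its genotype was not tested.

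Summed effectors were above all WT mice in 6 of 8 Q175 mice in corpus callosum, 2 in hippocampus and 7 in brainstem. In brainstem they ran from 347 to 396 CPM in Q175 mice and from 275 to 352 CPM in WT mice. The mouse of Q175 male 4 was the highest at 396 CPM, although its callosum was the lowest of the Q175 group. Its brainstem library also held 615 CPM of meningeal transcripts, where the Q175 brainstem median was 210 CPM. The mice of callosum WT female 1 and WT female 4, highest of the WT brainstems in effectors (352 and 344 CPM), held 724 and 557 CPM of meningeal transcripts. The mouse of Q175 male 1, highest in callosum at 1006 CPM, had 354 CPM in brainstem and 213 CPM in hippocampus. So the order of the mice differed between tissues, and the part of meningeal RNA in that order was not tested. Summed MHC class I genes were above all WT mice in 6, 2 and 0 of 8 Q175 mice in the same 3 tissues, meningeal sums in 5, 0 and 0, and Dbhos in 7, 3 and 0.

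**Figure D5:**
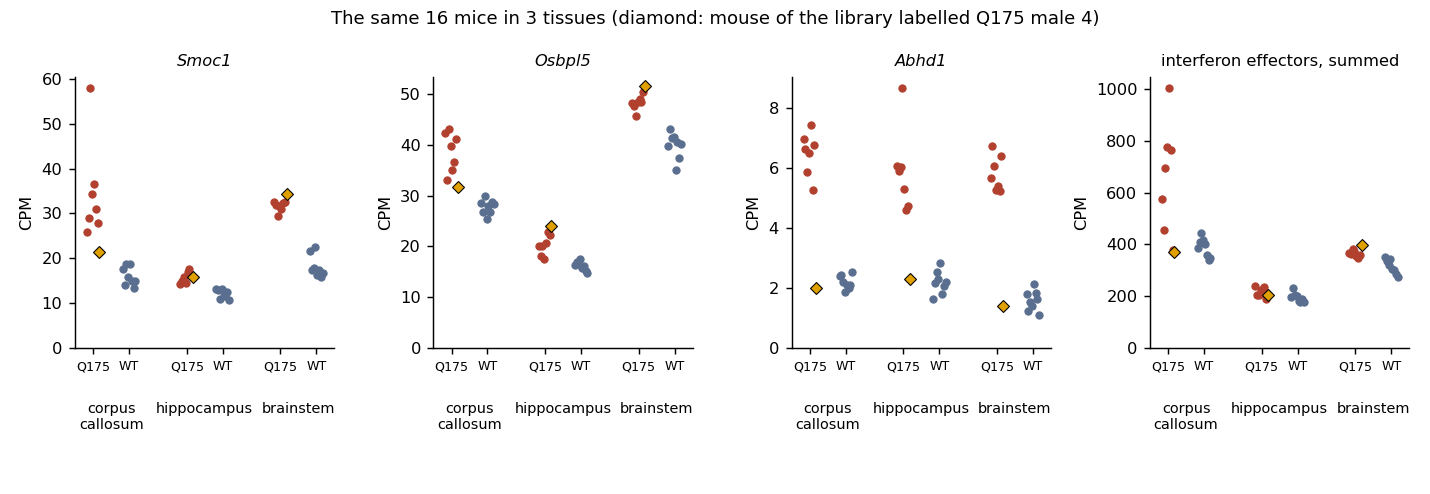
Levels in CPM of Smoc1, Osbpl5, Abhd1 and the summed interferon effectors in corpus callosum, hippocampus and brainstem of the same 16 mice, with 8 Q175 points left of 8 WT points in each tissue and the mouse of Q175 male 4 as a diamond. Smoc1 and Osbpl5 do not overlap in any tissue, and the diamond lies among the WT points for Abhd1 in all 3.

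The difference in response was tested with limma voom over these 48 libraries, with the correlation of libraries from 1 mouse estimated at 0.0682. Against hippocampus 4 genes had a higher change in corpus callosum (0.0227%) and 3 a lower one (0.017%) of 17645, and against brainstem 44 (0.249%) and 37 (0.21%). None of the 44 effectors passed either test, with lowest adjusted p of 0.088 and 0.126, though 24 and 18 had an unadjusted p under 0.05, as did 16.2% and 18.6% of all genes in either direction. Within that fit 37 of the 44 were called higher in corpus callosum, 0 in hippocampus and 0 in brainstem, where 6.22%, 0.38% and 0.601% of all genes were. Their median change was 0.69 in corpus callosum, 0.13 in hippocampus and 0.25 in brainstem. In corpus callosum the fit also called 13 of 14 MHC class I genes higher, and 14 of 22 excitatory neuron genes and 13 of 26 immediate early genes lower, where 9.12% of all genes were lower. The fit takes 1 spread per gene over all 3 tissues. Effector sums of Q175 mice ran from 369 to 1006 CPM in corpus callosum, 187 to 238 CPM in hippocampus and 347 to 396 CPM in brainstem. Where callosum libraries spread more widely, p-values of this fit that involve callosum can be too small. A call in 1 tissue and none in another does not show that the responses differ. Of the genes described here 7 had a higher change in corpus callosum than in brainstem. Tap2 had 0.56 (SE 0.101) in corpus callosum and -0.0018 in brainstem, a difference of 0.56 (SE 0.136, limma adjusted p = 0.0472). Tnfrsf1a had 0.55 and -0.02, a difference of 0.57 (SE 0.137, adjusted p = 0.0462). Gja1, the gap junction protein of astrocytes, had 0.16 and -0.24 (difference 0.40, SE 0.0618, adjusted p = 0.00055), and Sparc 0.25 and -0.21 (difference 0.46, SE 0.0931, adjusted p = 0.0161), so that both had opposite signs in the 2 tissues. Nuak2, Fes and Dbhos had differences of 0.76, 0.49 and 1.29. Smoc1 had 1.01 in corpus callosum, 0.39 in hippocampus and 0.82 in brainstem, with limma adjusted p of 0.0917 and 0.486 for the differences from hippocampus and brainstem. Osbpl5 had 0.44, 0.36 and 0.29 in the same order and Abhd1 1.35, 1.27 and 1.67, with adjusted p between 0.275 and 0.922 for the 4 differences. These counts depended on single libraries, with 2 to 558 genes against hippocampus and 31 to 1052 against brainstem when 1 callosum library was left out: without Q175 male 4 they were 558 against hippocampus and 1052 against brainstem, and without WT male 1 they were 459 and 563.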

How the data were processed

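Polyadenylated RNA of 16 corpus callosum samples (of 173 in the series) was sequenced on Illumina instruments from flash frozen tissue, per the labels' protocols. Per the submitters' processing notes, CASAVA 1.8.2 was among the tools. What aligner, counter and build were used is not stated in any source used here. The authors deposited estimated (expected) counts per gene, of which 17.7% of values were not whole in these libraries, and FPKM values that they scaled to gene length and library total. Of 38561 genes 36639 (95.0%) matched a symbol. Library totals ran from 32 to 39.7 M (mega).

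From the deposited estimated counts, rounded to whole numbers, edgeR 4.0.16 fitted sex and genotype (TMM, filterByExpr, robust quasi-likelihood F-test, Benjamini-Hochberg adjustment over all genes tested, threshold 0.05). CPM are on the TMM scale. The tissue difference used limma 3.58.1 (voom). R 4.3.3, DESeq2 1.42.0, version 1.17.8 of the data.table package, Python 3.11.15, pandas 2.3.3 and matplotlib 3.10.9 were used. The main edgeR fit and DESeq2 were tested on simulated corpus callosum counts with known changes, drawn independently for each gene. The limma fit over 3 tissues and the other fits were not tested in this way. Promoter sequences are from RefSeq (GRCm38.p6) and chromosomes from GENCODE. Gene symbols were looked up by Ensembl gene ID, with RefSeq synonyms used for list genes not found that way. The labels do not say that same-numbered mice share a litter or batch, and 3 of 8 same-numbered pairs correlated above 0.1, so the numbers were not taken as pairs. P-values measure the spread between mice of 1 animal code group per sex and genotype.

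The members, the lists, the tests and the naming rule were chosen with earlier results of these data known. Named genes are Htt, Smoc1, Osbpl5, Tmem119, Bst2, called genes with an established name, up to 6 members of each list with the smallest p (and its first members), and up to 10 genes each way that DESeq2 called without overlap between groups. Alternatives were DESeq2, RLE scaling, no sex term, keeping low counts, a replicate block, FPKM plus 1 on the log2 scale, library weights, removal of the length trend, summed neuronal or meningeal transcripts as a term, and leaving out libraries. Some list genes had no match in the table, and lists were used without them. A few genes meeting this rule go unreported here, though the counts include them.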

Additional observations from a re-analysis of the deposited data

Results flagged for a closer look

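In 31 of 218 groups of 8 libraries, over the named genes and list sums, the highest or lowest library lay farther from the rest than Dixon's 95% critical value for the ratio of gap to range allows, where chance gives about 1 in 20. Of these, 23 were Q175 groups.

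Q175 male 1 gave 16 of them. It was the highest Q175 library for Tap2 (27.1 CPM), H2-K1 (175 CPM), B2m (385 CPM), C1qa (128 CPM), Cbr2 (6.98 CPM), Vim (286 CPM), Dcn (195 CPM), Col3a1 (63.3 CPM), Bgn (133 CPM), Sparc (354 CPM), Fes (7.95 CPM) and Nuak2 (2.89 CPM). It was also the highest for summed MHC class I (1123 CPM), complement (734 CPM) and endothelial and mural genes (2033 CPM), and the lowest for summed clock genes (903 CPM). Q175 female 3 was the highest for Smoc1 (58.5 CPM) and Spp1 (73.6 CPM). Q175 male 4 was the lowest for Abhd1 (1.98 CPM, next 5.28 CPM), Dbhos (0.852 CPM, next 2.46 CPM), Olig1 (254 CPM) and Slc2a1 (133 CPM), and Q175 female 2 the lowest for Gja1 (267 CPM).

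Among WT libraries, female 1 was the lowest for Htt (82.4 CPM, next 139 CPM) and Palld (2.11 CPM) and the highest for Ifi35 (4.48 CPM) and Npy (61.6 CPM). WT female 2 was the highest for Itgax (1.82 CPM), WT female 4 for summed interneuron genes (1227 CPM), and WT male 1 for summed choroid plexus genes (448 CPM) while lowest for the summed SPARC family (2064 CPM).

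A test of the difference in response between tissues (limma voom, adjusted over 17645 genes) set 7 named genes apart, each with a change in corpus callosum above that in brainstem: Dbhos by 1.29, Fes by 0.49, Gja1 by 0.40, Nuak2 by 0.76, Sparc by 0.46, Tap2 by 0.56 and Tnfrsf1a by 0.57 on the log2 scale.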

How the results depend on the processing

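The 9 calls became 202 under DESeq2, 756 with library quality weights, 5 with meningeal transcripts as a term and 0 with excitatory neuron transcripts as a term, and the cause was not tested. Leaving out 1 library gave 0 to 12. Fits chosen after seeing the data gave 4 in females, 0 in males, 1 omitting Q175 female 3 and male 1, 0 omitting the 3 libraries whose levels fall with transcript length and 0 omitting both libraries with a D part in their name, all with fewer libraries. The replicate block gave 0 (2797 genes at an unadjusted p under 0.05), and 2 of 8 mice correlated best with their own number. Htt passed under DESeq2 (-0.57), quality weights (-0.54) and with the length trend removed (-0.46). Gene by gene, 2334 of 2480 alternatives kept direction and side of the threshold, while 81 gained and 61 lost a call. The 4 that changed sign were Dcn (-0.48) and Mrc1 (-0.13) with the meningeal term, and P2ry12 with the excitatory term (-0.056) and in males (-0.014). Most kept their side because the gene was called in neither fit. Only Smoc1, Osbpl5, Abhd1 and Dbhos of these 80 genes were called by the main fit, and all 61 losses fell on them. Among the gains, 41 came under DESeq2 and 39 with quality weights. Of 868 list medians 855 moved by less than the replicate spread, the SD within genotype of the list's median in each library. That spread is wide for lists led by few libraries, so a median counted here can still shrink or change sign.

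The counts of genes with another response than hippocampus and brainstem (7 and 81) became 937 and 1320 with quality weights, 28 and 216 with the replicate block and, for brainstem, 32 with no correlation within a mouse. Leaving out 1 corpus callosum library gave 2 to 558 and 31 to 1052. The sex by genotype term gave 0 calls in every fit run. Cutting the promoter window to 200 bases before the start left 15 of 34 effectors with the motif (44.1%). At this depth the interferon ligands, at 0.0618 CPM or less in sum, could not be compared.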
